A study of Homo sapiens with 8 samples.

Results

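Glycosyltransferases of the secretory pathway are described here in the triple-negative breast cancer line MDA-MB-231 after ADAR1 siRNA or control siRNA. The members were taken by name: gene symbols of the families GALNT, B3GALT, B4GALT, B3GNT, MGAT, FUT, ST3GAL, ST6GAL, ST6GALNAC, ALG, POMT, XYLT and EXT followed by a number, together with STT3A and STT3B, with a mean of at least 10 estimated counts over the 8 libraries. Of 19892 genes listed, 93 had such a name and 69 of them reached the minimum. FUT10 and FUT11 are listed under their newer symbols POFUT3 and POFUT4 and so were not matched. B3GNT4, with a mean count of 10.5, was just inside the minimum, and ST6GALNAC2, with a mean of 9, was just outside it. Among the 24 below it, MGAT3, MGAT4D, B3GNT6, B3GALT2, FUT3 and FUT5 had 0 counts in all 8 libraries. By counting error alone, a count of 0 in 1 library allows an expected count of up to 3, and 0 in all 8 allows less per library. XYLT1 had at most 1 count in any library, so its paralog XYLT2 was the xylosyltransferase measured.

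The series asks what ADAR1, the adenosine deaminase encoded by ADAR that edits double-stranded RNA, does to the output of genes in cancer cells. RNA fragments, in libraries that the labels call Input, and ribosome-protected fragments (footprints; Ribo-seq) were sequenced from cells of this one line with each siRNA. Each of the 4 groups, control siRNA Input, ADAR1 siRNA Input, control siRNA Ribo-seq and ADAR1 siRNA Ribo-seq, held 2 libraries. The siRNA sequences and the length of treatment were not given in the sources used here. Whether replicates were separate cultures is not in the labels either, and p-values therefore rest on library-to-library spread alone, possibly technical.

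Glycosyltransferases sit in the membranes of the endoplasmic reticulum and Golgi apparatus, where they build sugar chains on proteins and lipids from activated nucleotide sugars. For N-glycans, the ALG enzymes assemble a precursor on the lipid dolichol, the oligosaccharyltransferase with its catalytic subunit STT3A or STT3B moves it to asparagine in nascent or completed chains, and MGAT, FUT, B4GALT and sialyltransferase enzymes remodel it in the Golgi. GALNT enzymes start mucin-type O-glycans, POMT1 and POMT2 start O-mannose glycans, and XYLT2, B4GALT7, B3GALT6, EXT1 and EXT2 build the linker and the heparan sulfate chains of proteoglycans. In breast and other carcinomas, these enzymes are known for branched N-glycans and truncated, sialylated O-glycans on the cell surface.

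Promoter windows of the members were read from RefSeq (GRCh38.p14). Of the 69 members, 56 had an entry, with 96 start sites in all. The 250 bases before each start were searched on both strands for the endoplasmic reticulum stress element ERSE (a CCAAT box spaced from CCACG), the unfolded protein response element TGACGTGG, the amino acid response element TGATGCAAT, the CCAAT box and the GC box GGGCGG. The CCAAT box is also the first part of the stress element, so the 2 searches overlap. The windows of 3 members are printed 5′ to 3′ on the strand of the gene, ending at the base before the start, with matches to these letters on either strand in capitals. ALG12 is shown as the only member with the full stress element, and GALNT2 and MGAT2 as members of the O-glycan and N-glycan arms whose footprints are described below. The GALNT2 window lies inside the span given for that gene below, before a start downstream of the first base of the span.
ALG12, chr22:49918439-49918688, minus strand: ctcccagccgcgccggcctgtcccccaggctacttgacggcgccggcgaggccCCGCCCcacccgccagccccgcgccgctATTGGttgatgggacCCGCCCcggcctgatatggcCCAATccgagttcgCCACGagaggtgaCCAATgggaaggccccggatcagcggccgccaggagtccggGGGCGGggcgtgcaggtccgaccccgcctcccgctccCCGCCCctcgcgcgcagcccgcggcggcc
GALNT2, chr1:230066988-230067237, plus strand: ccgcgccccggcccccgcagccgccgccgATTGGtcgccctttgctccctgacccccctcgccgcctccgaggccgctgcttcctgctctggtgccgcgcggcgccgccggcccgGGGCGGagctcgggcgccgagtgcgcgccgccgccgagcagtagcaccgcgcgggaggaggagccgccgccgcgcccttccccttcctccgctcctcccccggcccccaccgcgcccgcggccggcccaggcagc
MGAT2, chr14:49620549-49620798, plus strand: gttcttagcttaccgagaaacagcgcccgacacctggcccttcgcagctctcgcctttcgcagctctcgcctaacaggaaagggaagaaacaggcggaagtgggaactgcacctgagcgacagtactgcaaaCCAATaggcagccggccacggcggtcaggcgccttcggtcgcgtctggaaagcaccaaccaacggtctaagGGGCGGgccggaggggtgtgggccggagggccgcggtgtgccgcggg

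The stress element of ALG12 lay 134 to 116 bases before the start, and this was 1 of the 96 member windows (1.04%), against 0.074% of 35116 windows of all genes. The unfolded protein response element was in 0 member windows and in 0.612% of all windows. The amino acid response element was in 1 member window, that of FUT1 (1.04%, against 0.216% of all). The CCAAT box was in 29 member windows (30.2%, against 32% of all) and the GC box in 61 (63.5%, against 42.6%). A match says only that the letters are there, and a window without one says nothing about the factor.

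Depth, as summed estimated counts, was 15732757 to 17153716 in Input, while Ribo-seq was shallower at 11975081 and 10492223 with control siRNA and 14646868 and 14875465 with ADAR1 siRNA. ADAR itself was at 106 and 110.2 TPM (the deposited level per transcript length and library) in control Input and at 14.8 and 30.6 TPM in ADAR1 siRNA Input, so both treated libraries were lower and replicate 1 was the lower of them. The 7 markers of this mesenchymal-like line all reached 1 TPM in Input, with VIM at 4441 to 4694 TPM and SPARC, at 1.12 to 3.92 TPM, the lowest. ESR1, PGR, CDH1 and FOXA1, markers of luminal breast cells, were under 1 TPM in every Input library. Other markers of these cells were present: ERBB2 at 29.5 to 35.5 TPM, EPCAM at 13.3 to 21.0 TPM and GATA3 at 5.84 to 8.46 TPM. Of endothelial and fibroblast markers, KDR (3.70 to 5.80 TPM), PECAM1 (2.58 to 4.32 TPM) and COL1A1 (2.73 to 3.49 TPM) also reached 1 TPM. Reaching 1 TPM thus does not set markers of this line apart. Immune markers summed to 234 TPM in both control Input libraries and to 180.0 and 185 TPM with ADAR1 siRNA, nearly all from CD68, while MS4A1 was at 0. Their part in the results was not tested. Over 64 members, the SD of the log2 difference between replicates was 0.14 in control Input, 0.48 in ADAR1 siRNA Input, 0.33 in control Ribo-seq and 0.43 in ADAR1 siRNA Ribo-seq.

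In control Input, the highest members were the oligosaccharyltransferase subunits and a heparan sulfate polymerase. STT3A, the subunit that works on chains still entering the endoplasmic reticulum, was at 306 and 315 TPM. EXT1, a heparan sulfate polymerase, was at 259 and 264 TPM. STT3B, the subunit that also works after translation, was at 229.8 TPM in both libraries. These 3 did not overlap between one another, and the next were ALG8, which adds the second glucose of the precursor (153 and 149 TPM), and MGAT4B, which starts an extra N-glycan branch (133 and 134 TPM).

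The lowest levels were those of single paralogs from several families. B3GNT4, which extends lactosamine chains, was at 0.976 and 0.678 TPM. GALNT16 was at 1.17 and 1.24 TPM, and FUT1, which makes the H antigen, at 1.00 and 1.80 TPM, so GALNT16 and FUT1 overlapped. ST6GALNAC5, a ganglioside sialyltransferase, was at 1.56 and 1.71 TPM, and MGAT4A, the paralog of MGAT4B, at 2.45 and 2.07 TPM. Paralogs differed widely in level: MGAT4B was far above MGAT4A, MGAT5 (23.6 TPM in both) above MGAT5B (8.23 and 9.62 TPM), and GALNT10 (129 and 127 TPM) and GALNT2 (101 and 104 TPM) above the other GALNT enzymes. By role, median control Input levels were 83.4 TPM for the 7 N-glycan branching and core fucose enzymes, 28.8 for the 14 GALNT enzymes, 22.4 for the 13 ALG enzymes, 16.6 for the 10 sialyltransferases and 12.9 for the 14 galactose and lactosamine enzymes.

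**Figure D1:**
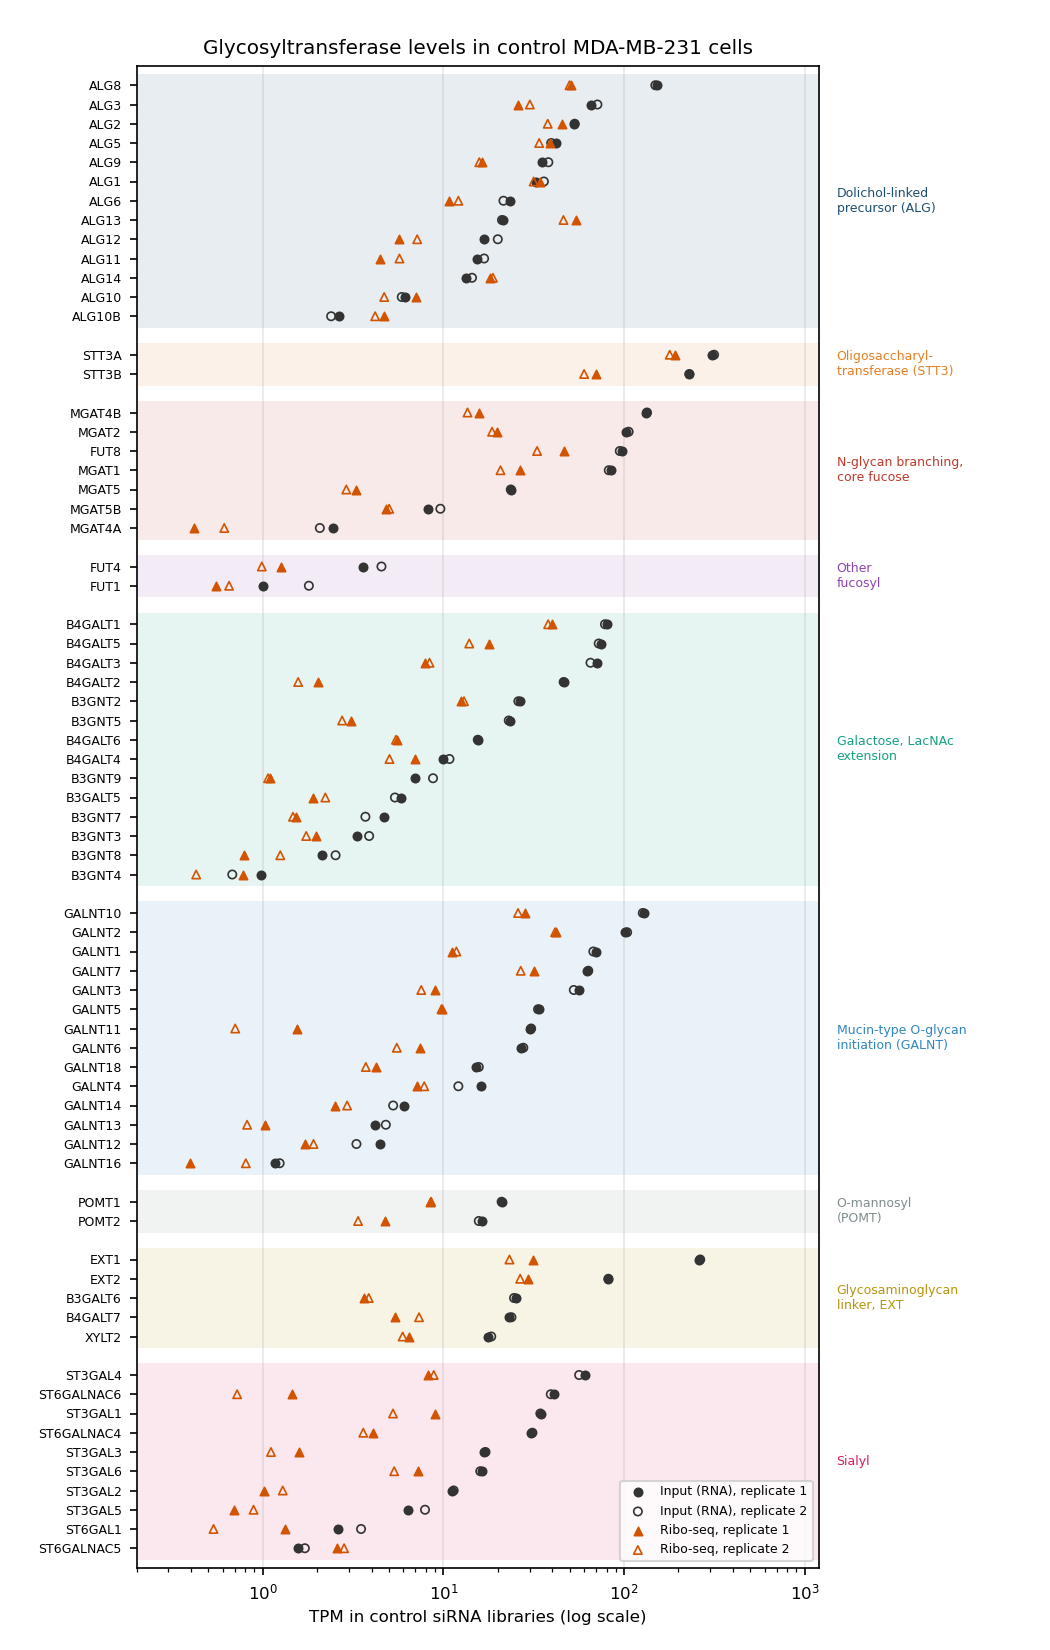
Levels of the 69 members in the 4 control siRNA libraries. Each row is a gene, the horizontal axis is TPM on a log scale, circles are Input and triangles are Ribo-seq (replicate 1 filled, replicate 2 open), and shaded bands are roles. STT3A stands highest in both assays, and most triangles lie left of their circles. Both triangles of ALG13, ALG14, ALG10B and ST6GALNAC5, and the replicate 1 triangles of ALG10 and ALG1, lie to the right.

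The ratio of Ribo-seq TPM to Input TPM, which the authors deposited as translational efficiency, was mostly below that of the typical gene for Golgi members and above it for several ALG enzymes. Among the 51 members with a mean count of at least 50 in both assays, the median control ratio was 0.345, with a range of 0.104 to 2.38. Over all 9736 such genes it was 0.403, with quartiles of 0.209 and 0.790, so the members as a set lay inside the usual range. ALG13, a subunit of the enzyme that adds the second sugar of the precursor, had 2.56 and 2.19, and its partner subunit ALG14 had 1.36 and 1.31. ALG10B had 1.77 and 1.75, ALG10 1.14 and 0.800, and ALG1, which adds the first mannose, 1.06 and 0.877. ALG1 overlaps EEF2KMT and its counts were fractional in all 8 libraries, so its values here and below are uncertain. The lowest were EXT1 at 0.121 and 0.0878, MGAT4B at 0.118 and 0.102, B4GALT3 at 0.112 and 0.129, ST6GALNAC4 at 0.134 and 0.116 and B3GNT5 at 0.131 and 0.119. ALG13, ALG10B and ALG14 did not overlap with one another, whereas ALG10 and ALG1 did, and so did neighbours among the lowest 5. This order rests on the transcript lengths behind each assay's TPM. Relative to the usual gene, the length implied by counts and TPM differed between the assays on a log2 scale. The full range over 47 members was -2.66 to 0.92. For 9103 genes it was -1.66 to 0.82 once both tails were left out, so these ranges cannot be compared in width. The relation of counts to TPM also differed between libraries of the same assay. GALNT13 had 172 estimated counts and 4.70 TPM in ADAR1 siRNA Input replicate 1, but 167 and 5.31 TPM in replicate 2. TPM and deposited ratios of 1 gene compared between siRNAs can carry such shifts, whereas the fold changes tested below rest on counts.

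In RNA, members lay on both sides of 0 and none passed the test. With edgeR's quasi-likelihood test and Benjamini-Hochberg adjustment over 12644 genes, 0 of 69 members had an adjusted p under 0.05, against 0.253% of all genes tested. At an unadjusted p under 0.05, 6 members were higher and 17 lower, against 11.8% and 13.5% of all genes, and DESeq2 called 3 members, against 3.55% of all genes. The targeted gene itself, ADAR, had a log2 fold change of -2.26 ± 0.32 and an adjusted p of 0.0527 in this test, so a call of 0 does not show that levels were the same. The median log2 fold change (ADAR1 siRNA over control) of the members was -0.03 (range -1.51 to 0.86), with 30 of 69 above 0, and that of all genes was 0.00, with 50.6% above 0. In bulk libraries of this kind, fewer cells that express a gene and less RNA per cell cannot be told apart. The call of 0 did not hold without 1 of the ADAR1 siRNA Input libraries: 25 members passed without replicate 1 and 38 without replicate 2, and 0 without either control library, while the group left with 1 library was assumed to vary like the other.

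Among members with a mean Input count of at least 50, those with the lowest RNA fold changes came from several steps. With fewer counts, B3GNT4 was at -1.51 ± 0.59, B3GNT3 at -0.84 ± 0.25 and GALNT16 at -0.70 ± 0.39. None of these passed the test. GALNT12, a GALNT enzyme known from the colon, was at 4.47 and 3.30 TPM in control Input and at 2.25 and 1.14 TPM with ADAR1 siRNA, a log2 fold change of -1.28 ± 0.36 (SE; adjusted p = 0.108). The groups did not overlap, but the treated libraries were farther from each other than the gap between the groups. B3GALT6, which adds the third sugar of the glycosaminoglycan linker, was at 25.3 and 24.6 TPM and then at 16.1 TPM in both treated libraries, the tightest of these differences (-0.64 ± 0.10, adjusted p = 0.0647). GALNT6, known from breast tumours, was at 26.8 and 27.7 TPM against 21.0 and 15.6 TPM (-0.59 ± 0.13, adjusted p = 0.0796). MGAT5B, a branching enzyme best known from brain, was at 8.23 and 9.62 TPM against 6.95 and 4.90 TPM (-0.57 ± 0.18, adjusted p = 0.126). B3GNT7, which extends keratan sulfate, was at 4.71 and 3.70 TPM against 0.694 and 4.58 TPM, so only replicate 1 was low and the groups overlapped (-0.65 ± 0.68, adjusted p = 0.586).

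The members with the highest RNA fold changes were also from several steps. ST6GALNAC5 was at 1.56 and 1.71 TPM in control Input and at 2.60 and 3.38 TPM with ADAR1 siRNA, both higher (0.86 ± 0.23, adjusted p = 0.102). GALNT7, which acts on peptides that already carry a sugar, was at 62.4 and 63.4 TPM against 85.3 and 76.3 TPM (0.34 ± 0.07, adjusted p = 0.0707). MGAT4A (0.39 ± 0.24, adjusted p = 0.359), ALG10B (0.37 ± 0.16, adjusted p = 0.22) and B3GALT5 (0.31 ± 0.30, adjusted p = 0.565) had the other high values. STT3A was 0.05 ± 0.06 and STT3B 0.20 ± 0.06 (adjusted p = 0.667 and 0.123). Among the 10 sialyltransferases, which cap glycans with sialic acid, 9 had a fold change below 0 and the median was -0.28, with ST6GALNAC5 the exception, and 6 had groups that did not overlap, lower in ADAR1 siRNA (29.7% of all genes were lower in this way). None of the 10 passed the test.

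Most members had higher footprint values with ADAR1 siRNA, and those that passed the test were mostly GALNT and MGAT enzymes. In the same test over 12000 genes, 9 of 69 members rose (adjusted p under 0.05), against 1.88% of all genes called higher, and 0 fell, against 1.67% called lower. They were 4 GALNT enzymes (GALNT1, GALNT2, GALNT5 and GALNT13), 3 N-glycan branching enzymes (MGAT1, MGAT2 and MGAT4B), the galactosyltransferase B4GALT1 and the oligosaccharyltransferase subunit STT3B. Of these, GALNT1, GALNT13 and STT3B had fractional counts in 3 libraries each and B4GALT1 in 2. Among all 69 members, 23 had a fractional count in some library and 16 overlap another protein-coding gene. The median log2 fold change was 0.45, with 61 of 69 members above 0, and over all genes it was 0.05, with 54.4% above 0. At an unadjusted p under 0.05, 27 members were higher and 1 lower, against 12.7% and 11.3% of all genes. Every treated library was above both control libraries for 43 members and below both for 4, against 30.1% and 26.2% of all genes.

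The members' share of all counts moved in the same direction. It was 0.259% and 0.230% in control Ribo-seq and 0.341% and 0.321% in ADAR1 siRNA Ribo-seq, so the groups did not overlap. In Input it was 0.438% and 0.441% against 0.446% and 0.436%, and these overlapped. The smallest two-sided p that an exact permutation test of 2 against 2 libraries can give is 0.333, so such sums cannot pass a threshold. Set against the mean of both control Ribo-seq libraries, the median log2 difference of the members was 0.42 in treated replicate 1 and 0.32 in treated replicate 2.

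Calls were lost when a control Ribo-seq library was left out, but a group left with 1 library was then assumed to vary like the other. The members' median log2 fold change was 0.44 without control replicate 1 and 0.38 without control replicate 2. It was 0.33 without ADAR1 siRNA replicate 1 and 0.37 without ADAR1 siRNA replicate 2. The split of calls over all genes, 225 higher and 200 lower, was 311 and 176 with upper-quartile scaling (2.59% and 1.47%) and 391 and 587 with DESeq2, which also has another model of the spread (3.26% and 4.89%). The members' calls became 12 higher and 0 lower with the former and 13 higher and 1 lower with the latter.

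Among the enzymes that start mucin-type O-glycans, 4 of 14 rose. GALNT1 (chr18:35580922-35711834), a widely expressed member, was at 11.2 and 11.8 TPM in control Ribo-seq and at 24.2 and 21.6 TPM with ADAR1 siRNA, and its log2 fold change was 1.09 ± 0.18 (SE; adjusted p = 0.0278), or 2.13-fold. GALNT2 (chr1:230057789-230282122), the other widely expressed member, whose promoter window is printed above, went from 41.8 and 41.5 TPM to 68.6 and 71.6 TPM (0.85 ± 0.14, adjusted p = 0.0334). For both, the treated libraries lay far above the controls relative to the gap between replicates. Their Input levels differed by 0.09 ± 0.13 and 0.09 ± 0.07. By scaled counts, both treated Input libraries of GALNT2 were above both controls, at log2 0.14 and 0.03 over the control mean. GALNT5 (chr2:157257705-157318491) went from 9.88 and 9.76 TPM to 15.8 and 14.7 TPM (0.76 ± 0.15, adjusted p = 0.0422). Its Input level was also higher in both treated libraries, at 33.8 and 33.4 against 37.2 and 40.0 TPM (0.30 ± 0.07, adjusted p = 0.0832). GALNT13 (chr2:153068293-154456574), known mainly from the nervous system, was low, with 1.03 and 0.819 TPM in control and 2.49 and 2.83 TPM in treated Ribo-seq (1.40 ± 0.33, adjusted p = 0.049). It rested on few reads, 26 and 18.1 estimated counts in control and 75.4 and 75.1 in treated libraries, and RPRM lies within its span.

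Of the other 10 GALNT enzymes, 8 had higher footprints without passing the test. GALNT7 had 31.8 and 26.8 TPM against 45.6 and 43.3 TPM (0.70 ± 0.17, adjusted p = 0.0502). GALNT4, which also prefers peptides that already carry a sugar, went the other way, with 7.15 and 7.83 TPM in control and 3.58 and 4.94 TPM in treated Ribo-seq (-0.73 ± 0.19, adjusted p = 0.0639). It was the member with the lowest footprint fold change. GALNT4 overlaps POC1B and their read-through gene POC1B-GALNT4, and its counts were fractional in all 8 libraries, so its values are uncertain. GALNT12, lower in RNA, had 1.72 and 1.91 TPM in control and 1.83 and 1.82 TPM in treated Ribo-seq (-0.05 ± 0.29, adjusted p = 0.931).

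Of the 7 enzymes that branch or fucosylate the N-glycan core, 3 rose and the median was 0.78. MGAT1 (chr5:180784780-180815616), which adds the first N-acetylglucosamine and so opens the way to complex N-glycans, was at 26.4 and 20.7 TPM in control Ribo-seq and at 37.9 and 37.7 TPM with ADAR1 siRNA (0.78 ± 0.18, adjusted p = 0.046). MGAT2 (chr14:49620799-49623481), which adds the second, went from 19.9 and 18.6 TPM to 26.9 and 31.2 TPM (0.69 ± 0.16, adjusted p = 0.046). MGAT4B (chr5:179797597-179806866), which starts a further branch, went from 15.7 and 13.6 TPM to 20.5 and 29.5 TPM (0.81 ± 0.18, adjusted p = 0.0443). The groups did not overlap for any of the 3, and the treated libraries of MGAT4B were the farthest apart.

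Input values of these genes lay on both sides of 0. MGAT1 was at 84.4 and 82.3 TPM in control Input and at 71.2 and 72.4 TPM with ADAR1 siRNA (-0.22 ± 0.07, adjusted p = 0.125), and MGAT4B at 133 and 134 against 108 and 121 TPM (-0.24 ± 0.09, adjusted p = 0.168). MGAT2 went the same way as its footprints, at 102 and 106 against 128 and 118 TPM (0.23 ± 0.07, adjusted p = 0.113). MGAT4B overlaps SQSTM1, and no source used here says whether counting used the strand. Just outside the threshold were MGAT5, which makes the branch that carries long lactosamine chains (3.30 and 2.90 TPM against 4.49 and 5.95 TPM in Ribo-seq, 0.83 ± 0.20, adjusted p = 0.0529), and FUT8, the core fucosyltransferase (46.6 and 33.0 against 57.2 and 71.3 TPM, 0.68 ± 0.17, adjusted p = 0.0591). MGAT5B was the only one of the 7 below 0, at -0.07 ± 0.23.

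B4GALT1 (chr9:33104077-33185089), the main enzyme that adds galactose to N-acetylglucosamine, was at 39.8 and 38.0 TPM in control Ribo-seq and at 55.6 and 60.8 TPM with ADAR1 siRNA (0.71 ± 0.15, adjusted p = 0.0422). It was the only one of the 14 galactose and lactosamine enzymes to rise. B4GALT5, a lactosylceramide synthase, followed with 17.8 and 13.9 against 26.4 and 25.2 TPM (0.80 ± 0.19, adjusted p = 0.0514). In this group 11 of 14 were above 0, with a median of 0.50, and the exceptions were B3GNT3, B3GNT4 and B4GALT2, each with 6 to 52 estimated footprint counts per library.

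The paralogous catalytic subunits of the oligosaccharyltransferase differed in their calls. STT3B (chr3:31532925-31637616) was at 69.5 and 60.1 TPM in control Ribo-seq and at 94.4 and 101 TPM with ADAR1 siRNA (0.67 ± 0.15, adjusted p = 0.0443). STT3A was at 192 and 179 TPM against 219 and 201 TPM (0.24 ± 0.15, adjusted p = 0.356). Neither overlapped between groups, and the difference between the paralogs was not tested.

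**Figure D2:**
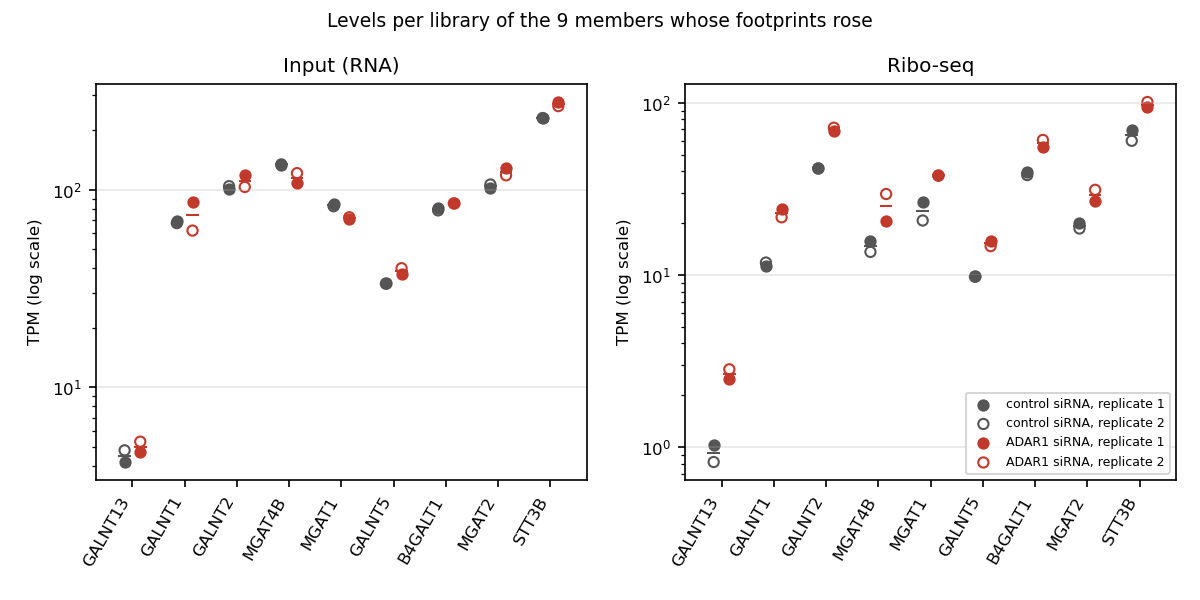
Levels per library of the 9 members whose footprints rose, with Input in the left panel and Ribo-seq in the right, in TPM on log axes. Filled circles are replicate 1 and open circles replicate 2, grey is control siRNA and red is ADAR1 siRNA, and short lines are means of the 2 libraries. In Ribo-seq every red circle lies above both grey circles of its gene. In Input, both red circles lie above the grey ones for GALNT5, B4GALT1, MGAT2 and STT3B and below them for MGAT1 and MGAT4B. They overlap in TPM for GALNT1, GALNT2 and GALNT13, although scaled counts of GALNT2 did not overlap.

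The other roles had members above 0 and no calls. All 13 ALG enzymes were above 0 in Ribo-seq, but by little, from 0.02 for ALG1 to 0.51 for ALG12, with a median of 0.23. ALG12, which adds a mannose to the precursor and has the stress element shown above, had 5.70 and 7.16 TPM against 8.43 and 8.56 TPM in Ribo-seq (0.51 ± 0.19, adjusted p = 0.149) and 16.8 and 20.0 against 13.3 and 13.7 TPM in Input (-0.37 ± 0.11, adjusted p = 0.126). ALG12 overlaps ZBED4, and its counts were fractional in 4 libraries. ALG10, which adds the last glucose, was at 0.06 ± 0.24, and it and ALG10B are near-identical copies with fractional counts in 7 libraries each, so both are uncertain. FUT4, which makes the Lewis x antigen, had 1.26 and 0.988 TPM against 1.72 and 2.18 TPM (0.87 ± 0.32, adjusted p = 0.135), and FUT1 0.554 and 0.651 against 1.48 and 1.34 TPM (1.33 ± 0.45, adjusted p = 0.115). Both fucosyltransferases were higher in each treated library, on few counts.

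The glycosaminoglycan enzymes had a median of 0.43, with 5 of 5 above 0, and EXT1 the highest at 31.3 and 23.2 against 31.7 and 52.5 TPM (0.70 ± 0.22, adjusted p = 0.0896). For EXT1 only treated replicate 2 was clearly above the controls. POMT1 was at 0.24 ± 0.17 and POMT2 at 0.61 ± 0.21 (adjusted p = 0.423 and 0.121). Of the 10 sialyltransferases, 8 were above 0 with a median of 0.47. ST6GALNAC4, which makes disialylated O-glycans, had 4.08 and 3.60 against 8.43 and 6.01 TPM (0.91 ± 0.31, adjusted p = 0.115). The exceptions were ST3GAL3 (-0.46 ± 0.50) and ST6GALNAC5 (-0.44 ± 0.33), whose treated libraries were both below the controls without passing the test.

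**Figure D3:**
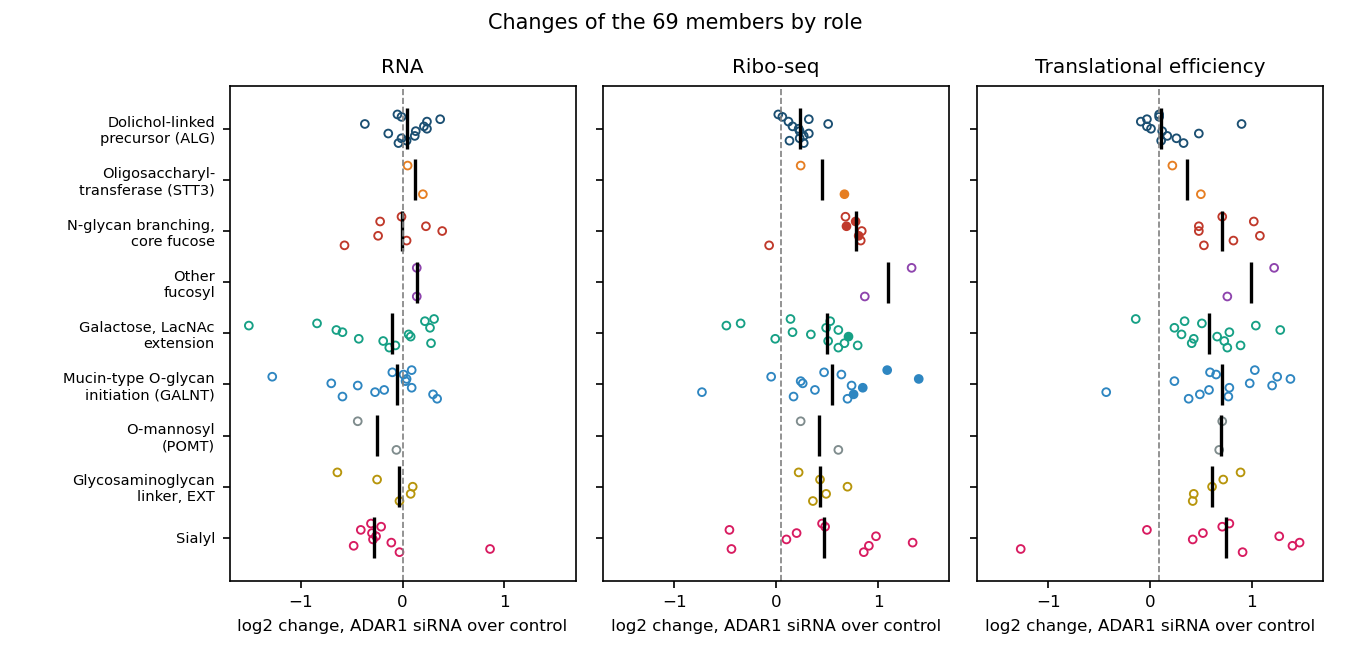
Log2 changes of the 69 members by role in RNA, Ribo-seq and translational efficiency (horizontal axes, ADAR1 siRNA over control). Each circle is a gene, filled where its adjusted p is under 0.05, the black bar is the median of the role and the dashed line is the median of all genes tested; height within a role has no meaning. RNA medians lie from -0.28 to 0.14, whereas Ribo-seq medians lie from 0.23 for the ALG enzymes to 1.10 for the 2 fucosyltransferases.

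Translational efficiency was tested as the interaction of assay and siRNA over all 8 libraries, and so shares its libraries with both comparisons above. No member passed: 0 of 69 had an adjusted p under 0.05, against 0.0463% of 12953 genes, and the smallest adjusted p was 0.0534, for MGAT4B and GALNT2. At an unadjusted p under 0.05, 30 members were higher and 1 lower, against 13.2% and 9.48% of all genes. DESeq2 called 11 members higher and 0 lower, against 3.77% and 3.81% of all genes. Over all genes, edgeR called 2 higher and 4 lower and DESeq2 488 higher and 494 lower. The median change was 0.58, with 62 of 69 above 0, and over all genes 0.09, with 57.3% above 0. Without ADAR1 siRNA Ribo-seq replicate 1 the count was 6, and without replicate 2 it was 21, all higher.

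MGAT4B had the change with the smallest p, at 1.08 ± 0.20, with deposited ratios of 0.118 and 0.102 in control and 0.190 and 0.243 with ADAR1 siRNA. GALNT2 had 0.414 and 0.399 against 0.584 and 0.696 (0.78 ± 0.15). MGAT1 had 0.313 and 0.251 against 0.532 and 0.520 (1.02 ± 0.20, adjusted p = 0.0538). For each of these 3, both treated ratios were above both control ratios. The highest changes were those of sialyltransferases and low members: ST6GAL1, which caps N-glycans (1.47 ± 0.54, adjusted p = 0.143), ST6GALNAC4 (1.40 ± 0.34, adjusted p = 0.0598), GALNT13 (1.38 ± 0.32, adjusted p = 0.0578), B3GNT7 (1.28 ± 0.99, adjusted p = 0.476) and ST3GAL5, the GM3 synthase (1.27 ± 0.46, adjusted p = 0.139). Footprint counts of ST6GAL1 ran from 10 to 69 per library, and Input counts of B3GNT7 from 16 to 115.

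ST6GALNAC5 was lowest, at -1.27 ± 0.40 (adjusted p = 0.101), with RNA higher and footprints lower in both treated libraries. GALNT4 followed at -0.43 ± 0.24 (adjusted p = 0.323), then B3GALT5 at -0.14 ± 0.48, ALG11 at -0.09 ± 0.21 and ALG13 at -0.03 ± 0.22. These last 3 were within their errors of 0. STT3B was 0.50 ± 0.17 (adjusted p = 0.115) and STT3A 0.22 ± 0.18 (adjusted p = 0.51). By role, the ALG enzymes had the lowest median, 0.11, close to that of all genes. The N-glycan branching enzymes (0.71), GALNT enzymes (0.71), O-mannosyltransferases (0.70) and sialyltransferases (0.75) had higher ones. The 2 other fucosyltransferases had the highest, 0.99.

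Footprint fold changes exceeded RNA fold changes for 61 of 69 members, against 6468 of 11743 genes tested in both assays. Across members, Pearson's r between the 2 fold changes was 0.32, and across those genes 0.24. Genes are not independent replicates, so these are given as descriptions only.

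**Figure D4:**
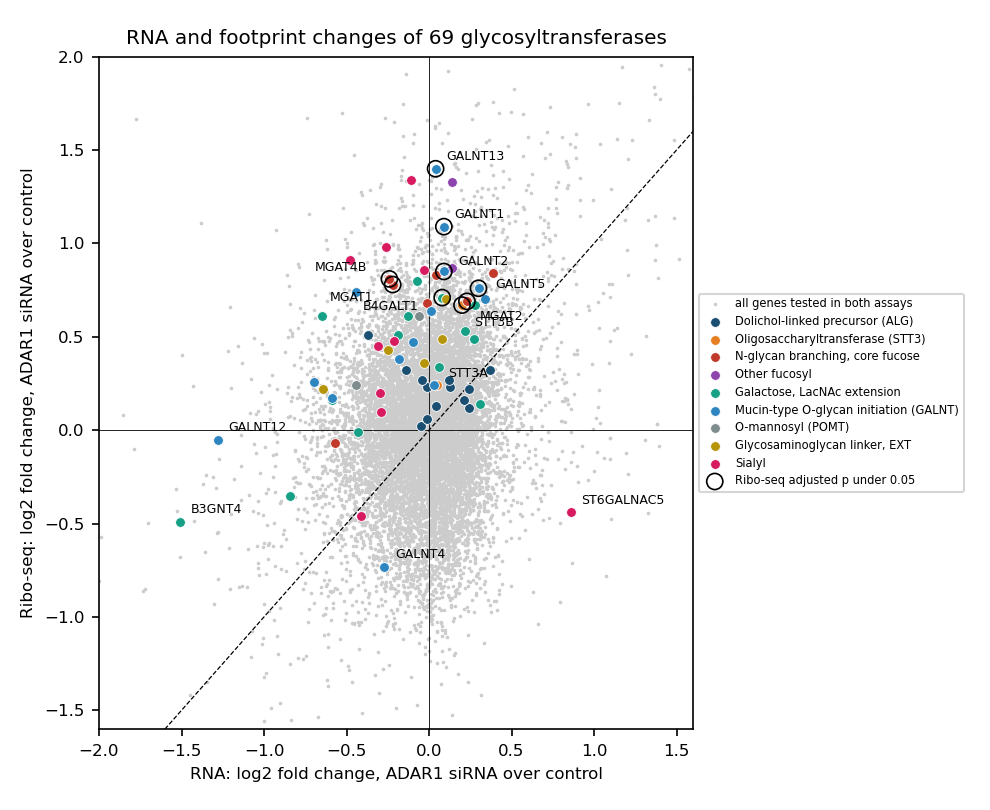
Log2 fold change in RNA (horizontal) and in Ribo-seq (vertical) for the 69 members, coloured by role, over all genes tested in both assays in grey. The dashed line marks equal changes, rings mark the 9 members whose footprints rose, and single grey points outside the axes are not drawn. Of the 69 coloured points, 61 lie above the dashed line, while ST6GALNAC5 and GALNT4 lie below it.

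Genes that work beside the members were taken from 8 pathway lists. In RNA and translational efficiency, 0 genes of these lists passed the test. In Ribo-seq, most genes of 6 lists were above 0: 9 of 10 other oligosaccharyltransferase subunits (median 0.31), 8 of 11 other dolichol pathway genes (0.21), 11 of 11 trimming glycosidases (0.37), 18 of 19 other O-glycan and O-mannose enzymes (0.28), 16 of 16 other glycosaminoglycan enzymes (0.59) and 7 of 9 nucleotide sugar transporters (0.31). In the other 2 lists most were below 0: 21 of 24 genes that make the nucleotide sugars used as donors (median -0.25), and 6 of 8 subunits of COG, the complex that tethers vesicles to the Golgi (-0.24). The median of all genes was 0.05.

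Of 108 genes tested in these lists, 3 rose (2.78%) and 1 fell (0.926%) in Ribo-seq, shares close to the 1.88% and 1.67% of all genes, so the calls do not set these lists apart. CHSY1, a chondroitin sulfate polymerase, was at 3.20 and 1.99 TPM in control and at 5.28 and 6.69 TPM in treated Ribo-seq (1.29 ± 0.24, adjusted p = 0.0373). CHPF2, a related polymerizing factor, was at 10.1 and 7.34 against 15.5 and 19.2 TPM (1.08 ± 0.19, adjusted p = 0.0336). POFUT2, which adds fucose to thrombospondin repeats, was at 20.3 and 23.9 against 34.7 and 35.8 TPM (0.80 ± 0.17, adjusted p = 0.0428). In all 3, the treated libraries were above both controls. PGM3, which makes the precursor of UDP-N-acetylglucosamine, the donor used by the MGAT enzymes, was at 20.2 and 23.4 against 8.63 and 13.3 TPM, and its log2 fold change was -0.87 ± 0.20 (adjusted p = 0.0475). Its Input level was 48.9 and 49.5 against 54.6 and 51.0 TPM. Without control Ribo-seq replicate 2 none of the 4 passed, with adjusted p = 0.161 for CHSY1, 0.266 for CHPF2, 0.194 for POFUT2 and 0.31 for PGM3, and POFUT2 did not pass without control replicate 1 either (adjusted p = 0.238).

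The genes of smallest p over the 3 tests in the other lists, and POMGNT1 in the list of POFUT2, did not pass the threshold. TUSC3, an oligosaccharyltransferase subunit, had a Ribo-seq fold change of 0.63 ± 0.16 (adjusted p = 0.0581), and NUS1, which makes dolichol, 0.66 ± 0.18 (adjusted p = 0.0709). MOGS, the glucosidase that starts trimming, had a translational efficiency change of 0.90 ± 0.20 (adjusted p = 0.0567), and POMGNT1, which extends O-mannose glycans, 1.03 ± 0.17 (adjusted p = 0.0534). In these 2 the RNA value was below 0 and the footprint value above it. SLC35A3, a transporter of UDP-N-acetylglucosamine, had an RNA fold change of 0.39 ± 0.12 (adjusted p = 0.116), and COG5 a translational efficiency change of -0.56 ± 0.19 (adjusted p = 0.118).

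**Figure D5:**
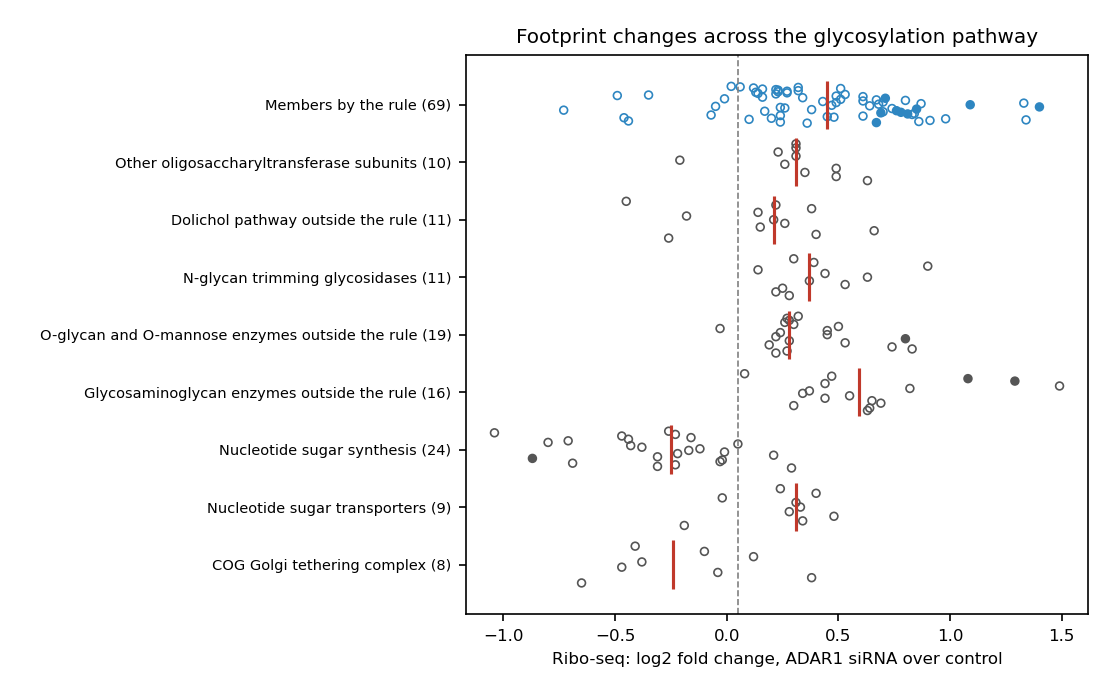
Ribo-seq log2 fold changes (horizontal axis, ADAR1 siRNA over control) of the 69 members and of 8 lists of genes of the same pathway, with the number tested in brackets. Circles are genes, filled where the adjusted p is under 0.05, red bars are medians and the dashed line is the median of all genes, 0.05; height within a list has no meaning. Medians lie from 0.21 to 0.59 for the members and 6 of the lists, and at -0.25 and -0.24 for nucleotide sugar synthesis and COG.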

How the data were processed

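RNA (Input) and Ribo-seq libraries of MDA-MB-231 cells were compared between siRNAs. Per the labels' protocols, lysates were run on sucrose gradients and RNA was selected by size on gels, without molecular identifiers being mentioned. Of tools, cutadapt, Bowtie2, STAR and featureCounts appear in the submitters' processing notes, with GRCh38 (hg38) as the build. Versions, roles and strand settings were not given in the sources used here. As processed values, the authors deposited 1 table with an estimated count, a TPM and a translational efficiency ratio (Ribo-seq TPM over Input TPM) per gene and library. Of the deposited count values, 87.0% to 90.1% per library were whole. Gene numbers were matched to RefSeq symbols for 19669 of 19892 genes, and coordinates are those of RefSeq's GRCh38.p14 table.

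Counts were rounded and tested with edgeR 4.0.16 in R 4.3.3 (filterByExpr, TMM, two-sided quasi-likelihood tests, Benjamini-Hochberg adjustment over all genes tested, threshold 0.05), RNA and Ribo-seq over 4 libraries each and translational efficiency as the interaction over 8, without a replicate block. The scripts were run on simulated data with larger changes than most members had, planted in well-counted genes. That run does not show how small changes or low counts fare. A standard error is the log2 fold change over the square root of its quasi-F statistic. All 69 members passed filterByExpr in the 3 tests. Groups were said not to overlap by scaled counts. Alternatives were DESeq2 1.42.0, upper-quartile scaling, no filter, a mean count of at least 50, a replicate block and leaving out each library. Named genes are the members past the threshold, the 5 highest and 5 lowest fold changes among members with a mean count of at least 50, STT3A and STT3B, the 5 highest and lowest levels and ratios, and, of each pathway list, genes past the threshold and the gene of smallest p. B4GALT5, FUT1, FUT8, EXT1, ALG12, POMT1, POMT2, ST3GAL3 and a few paralogs were added after their values were seen, to describe their groups. Members, roles, markers and pathway lists were chosen with earlier results of these data known.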

Additional observations from a re-analysis of the deposited data

How the results depend on the processing

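The count of members past the threshold differed between settings. In RNA (0) it was 3 with DESeq2 (1 higher, 2 lower) and ran from 0 to 38 when 1 library was left out, and the median (-0.03) from -0.09 to -0.02. In Ribo-seq (9) it was 12 with upper-quartile scaling, 14 with DESeq2, 20 without a count filter, 11 with a mean count of at least 50 and 0 to 24 when 1 library was left out, and the median (0.45) ran from 0.33 to 0.44. Each of the 9 calls was lost without control Ribo-seq replicate 2. DESeq2 kept 8 of them and gave no adjusted p for GALNT13. In translational efficiency (0) it was 11 with DESeq2, 13 without a count filter and 0 to 21 when 1 library was left out. The median (0.58) was 0.47 with a mean count of at least 50 and 0.47 to 0.65 when 1 library was left out. Replicate numbers are shared between groups, but the labels do not say that they pair libraries, and deviations of same-numbered libraries correlated at 0.03 (Input), 0.06 (Ribo-seq), 0.00 (control, between assays) and 0.39 (ADAR1 siRNA, between assays). With a replicate block the counts were 8 in RNA (3 higher, 5 lower), 23 in Ribo-seq (22 higher, 1 lower) and 7 in translational efficiency, and 17 with a replicate block pairing Input and Ribo-seq libraries. Directions of 8 named genes turned. With DESeq2, ALG1 was -0.02 in Ribo-seq. When 1 library was left out, RNA changes ran for B3GALT5 from -0.30 to 0.73 and for B3GNT7 from -2.64 to 0.15. Ribo-seq changes ran for MGAT5B from -0.43 to 0.18, for GALNT12 from -0.22 to 0.06, for ALG1 from -0.07 to 0.07 and for ALG10 from -0.22 to 0.40. Translational efficiency changes ran for B3GALT5 from -0.62 to 0.40, for ALG11 from -0.24 to 0.05 and for ALG13 from -0.22 to 0.14. The cause was not tested. Footprint depth limits 18 members, whose mean Ribo-seq count was under 50.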
